A study of Arabidopsis thaliana with 3 samples.

Results

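Of the 37478 non-control probes on the Agilent 2-colour array used here, 8812 carry no gene in the files and are named only by a chromosome and a pair of positions, such as CHR1:012096247-012096188. These position-named probes were chosen by that naming alone: a name that starts with CHR, a chromosome number from 1 to 5 and a range. The other non-control probes were 26236 with an Arabidopsis locus and 2430 with other accessions. In 8696 position-named probes the range covers 60 positions. The order of both positions differs between probes (ascending in 4666, descending in 4146) and is read here as the strand, which the files do not state. No source used here gives the genome build of the positions, and locus probes carry no positions, so no position was placed in a gene, exon or intron and no nearest locus is named.

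RNA of 35S:AtIBH1-SRDX seedlings was hybridised against RNA of wild-type seedlings on 3 arrays, 1 for each biological replicate. All seedlings were of the Col-0 background, 10 days old, and taken whole from agar with 1% sucrose at 23 °C with 16 h of light. In the transgenic plants the 35S promoter, active throughout the plant, drives IBH1, a helix-loop-helix protein that restrains cell elongation, joined to the SRDX repression domain, and no source used here gives the number of transgenic lines. IBH1-SRDX was in Cy3 on arrays 1 and 3 and in Cy5 on array 2, with wild type in the other dye.

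Plant genomes are transcribed well beyond their annotated protein-coding genes. Such transcripts include antisense RNAs, long non-coding RNAs, precursors of small RNAs, transposon transcripts and extensions of known genes that an annotation has not yet joined to them. A probe placed by position detects RNA from its stretch of the genome without saying to which of these kinds it belongs. In RNA from whole seedlings, fewer cells of a type and less RNA per cell cannot be told apart.

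The arrays held the shoot and root of a seedling: probes for the Rubisco gene RBCS1B, the root β-glucosidase gene PYK10 and the shoot meristem gene STM were well above background in IBH1-SRDX and wild type on all 3 arrays. Some of these markers differed between the genotypes: the log2 ratio was -0.86 for RBCS1B and -0.89 for RBCS3B, and -1.06 for CASP1 and -1.50 for NRT2:1, both of roots (adjusted p from 0.000355 to 0.00164, limma). The shoot markers RBCS1A (measured on arrays 1 and 3) and CAB1 stood at -0.28 and -0.19, PYK10 at 0.08 and STM at -0.14, and none of these was called. The part of such shifts in the results below was not tested. The seed storage gene CRA1, chosen as a marker absent from seedlings, was well above background in IBH1-SRDX on 3 arrays and in wild type on 0. Its log2 ratios were 3.28, 0.88 and 1.32, and it was called higher (mean 1.83, adjusted p = 0.0124, limma). The IBH1 probe had log2 ratios of -0.88, -0.60 and -0.67, lower in the RNA labelled IBH1-SRDX, and the SUP probe, of the gene SUPERMAN from which SRDX derives, had 8.06, 8.42 and 7.87. No source used here says whether the IBH1 probe lies in a part of the transcript that the transgene holds. Its value alone therefore cannot show whether the total IBH1 level was raised in the RNA labelled IBH1-SRDX, which was not tested. Directions rest on the labels. The SUP probe was higher in the RNA labelled IBH1-SRDX on all 3 arrays. No spot was saturated, and precision is limited by there being 3 arrays.

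Most position-named probes gave no clear signal in these seedlings. In IBH1-SRDX 1147 of the 8812 were well above background on all 3 arrays (13%), and in wild type 1062 were (12.1%). Probes with a locus stood at 76.5% in IBH1-SRDX and 75.9% in wild type. There were 979 position-named probes above background in both genotypes on all 3 arrays, 168 in IBH1-SRDX alone by that rule, and 83 in wild type alone. A further 6593 (74.8%) were above background in neither genotype on any array, and 989 on some arrays only.

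The number detected followed the dye. On array 1, 1374 position-named probes were well above background in IBH1-SRDX (Cy3), against 1688 in wild type (Cy5). On array 2, with the dyes swapped, 1540 were above background in IBH1-SRDX (Cy5), against 1155 in wild type (Cy3). On array 3 the counts were 1483 in IBH1-SRDX (Cy3) and 1783 in wild type (Cy5). The genotype in Cy5 had the higher count on each array. A count over all 3 arrays cannot exceed that of the lowest array, which was 1374 in IBH1-SRDX and 1155 in wild type, both in Cy3. Above background on 0 arrays were 6919 probes in IBH1-SRDX and 6727 in wild type, so by that count more were detected in wild type. The difference between 1147 and 1062 was therefore not read as one between genotypes.

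**Figure D1:**
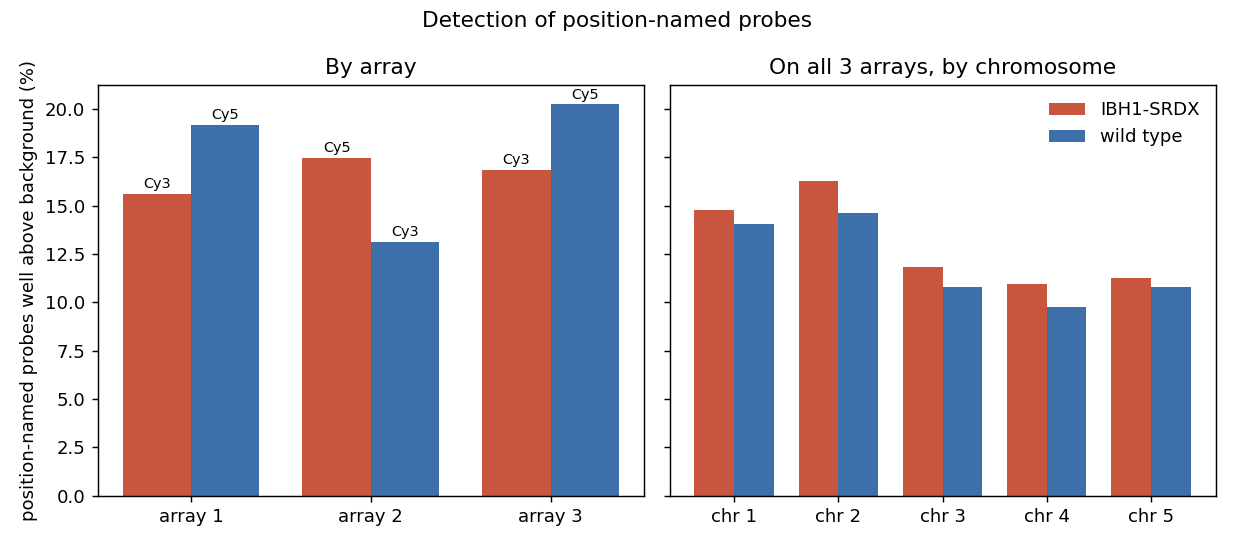
Share of the 8812 position-named probes (%) well above background, in IBH1-SRDX (red) and wild type (blue), on each array with its dye (left) and on all 3 arrays by chromosome (right). The genotype labelled with Cy5 has the taller bar on every array, and chromosome 2 has the tallest bars of the 5 chromosomes, at 16.3% in IBH1-SRDX and 14.6% in wild type.

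Detection differed along the genome. Chromosome 2 had 232 of its 1425 probes above background in IBH1-SRDX on all 3 arrays (16.3%), against 208 in wild type (14.6%). Chromosome 1 had 320 of 2165 in IBH1-SRDX (14.8%) and 304 in wild type (14%), and chromosome 3 had 211 of 1783 (11.8%) in IBH1-SRDX and 192 (10.8%) in wild type. Chromosome 4 was lowest, with 137 of 1250 (11%) in IBH1-SRDX and 122 (9.76%) in wild type, close to chromosome 5 with 247 of 2189 (11.3%) in IBH1-SRDX and 236 (10.8%) in wild type. By orientation the shares were 601 of 4666 ascending probes (12.9%) and 546 of 4146 descending ones (13.2%) in IBH1-SRDX.

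A stretch of 300 kb on chromosome 2 stood apart. Between positions 3200001 and 3500000 of chromosome 2 the array holds 96 of the probes, and 72 of them (75%) were above background on all 3 arrays in at least 1 genotype. On the rest of chromosome 2 that share was 172 of 1329 (12.9%), and over all probes outside the stretch 13.3%. Its 3 windows of 100 kb held 18 of 31, 27 of 33 and 27 of 32 detected probes, while the window before it held 1 of 9 and the one after it 0 of 4. The stretch was singled out after its values were seen. As background, chromosome 2 of Arabidopsis carries a large insertion of mitochondrial DNA near its centromere. Whether these positions lie in it was not tested, since no genome was used here, and of the array's 4 probes for mitochondrial loci 3 were above background in both genotypes on all 3 arrays.

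Probes whose range is not 60 positions were detected more often. There were 116 of them, with ranges from 45 to 969 positions, and 47 (40.5%) were above background on all 3 arrays in a genotype, against 1183 of 8696 (13.6%) of those with 60. The 91 with ranges over 100 had 35 detected (38.5%) and the 19 under 60 had 11 (57.9%). None of the 116 lay in the stretch of chromosome 2 described above.

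The question of the design is which transcripts differ in seedlings with the IBH1 fusion. It was tested for the 1230 position-named probes that were well above background on all 3 arrays in at least 1 genotype, together with all other probes that passed the same filter, 22351 in all. Each value is the log2 of IBH1-SRDX divided by wild type, given ± SE of limma (n = 3 arrays unless stated) and called at an adjusted p below 0.05. Limma draws each variance toward the one pooled over probes, so the SE is not the spread of a probe's own arrays. A probe that entered through 1 genotype had to lean toward it, so the counts describe the probes that passed and not all 8812.

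Of the 1230 tested probes 159 were called higher in IBH1-SRDX (12.9%) and 131 lower (10.7%), and 940 were not called. Over all tested probes the shares were 17.9% higher and 18.8% lower. The order of the higher shares turned with the Feature Extraction log ratio (17.2% of position-named probes and 17.0% of all tested) and with the deposited series table (12.6% and 11.9%), while the lower shares stayed below those of all tested probes (16.9% and 19.8%, and 26.2% and 30.3%). At least 2-fold higher were 19 of the 1230, against 654 of all 22351 tested probes (2.93%). At least 2-fold lower were 5 of the 1230, against 438 of the 22351 (1.96%). All but 1 of the 290 called probes were measured on 3 arrays, and those 289 had 1 sign on all of them. The median log2 ratio of the 1230 was 0.003 (medians of -0.009, 0.039 and -0.012 on the arrays), and that of all tested probes was 0. Called changes were mostly small: the median rise was 1.35-fold and the median fall 1.3-fold.

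These counts depend on the preparation and on single arrays. With local backgrounds that the scanner marked as outliers kept as they stand, 7 probes were called higher and 15 lower. That was 0.57% and 1.22%, against 4.71% and 8.17% of all tested probes. When arrays were only centred on their median 13 and 5 were called (1.06% and 0.41%, against 1.75% and 1.78% of all tested). Without replicate 1 the counts were 86 higher and 45 lower (7.0% and 3.66%, against 10.98% and 11.4% of all tested). Without replicate 3 they were 127 and 86 (10.3% and 7.0%, against 14.7% and 15.3% of all tested). Calls in the higher direction made up 54.8% of all calls of position-named probes in the main preparation, 31.8% with outlier backgrounds kept, 72.2% with median centring and 32.5% with the deposited series table, where the median of all tested probes lay at -0.146 (log2). Which direction held more calls thus changed with the preparation.

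Of the 979 probes above background in both genotypes on all 3 arrays, 123 were called higher (12.6%) and 114 lower (11.6%). Over all tested probes that met this rule the shares were 17.55% higher and 19.04% lower. The 168 that passed through IBH1-SRDX alone gave 36 higher and 0 lower, and the 83 that passed through wild type alone gave 0 higher and 17 lower, directions that the filter itself favours.

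**Figure D2:**
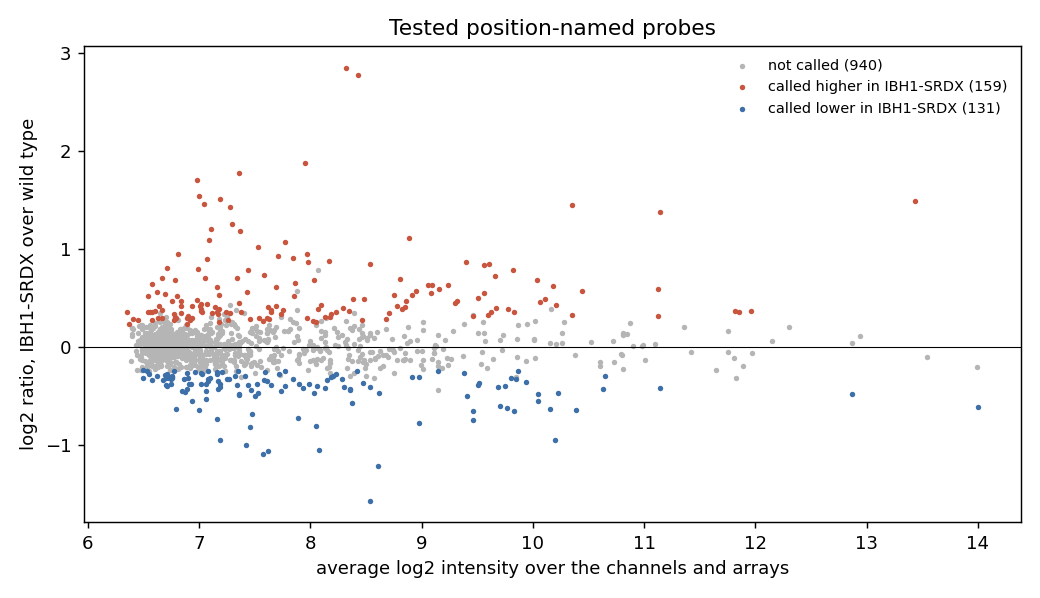
Log2 ratio of IBH1-SRDX over wild type (mean of 3 arrays) against average log2 intensity for the 1230 tested position-named probes, with 159 called higher in red, 131 called lower in blue and 940 not called in grey. Most points lie below an intensity of 8 and within 0.5 of zero, with 2 rises above 2.5.

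The largest rise in the main preparation was that of CHR1:012096247-012096188, at 2.93, 2.47 and 3.16 (log2 ratio) on arrays 1 to 3. Its mean was 2.85 ± 0.13, which is 7.23-fold (adjusted p = 4.06e-05, limma). In log2 intensity it stood at 9.78, 9.68 and 9.78 in IBH1-SRDX, against 6.85, 7.20 and 6.62 in wild type, so the genotypes did not overlap. CHR5:026069533-026069422, whose range covers 112 positions, had ratios of 2.39, 2.48 and 3.43 and a mean of 2.77 ± 0.19 (6.81-fold). These 2 were the only called probes of the set past a 4-fold difference in the main preparation. Sizes and ranks depend on the preparation. With the Feature Extraction log ratio CHR2:007766353-007766294 stood at 4.61 (log2 ratio), CHR4:009343010-009343069 at 4.09 and CHR1:012096247-012096188 at 3.92. The deposited series table gave 4.47, 3.95 and 3.79 for the same probes.

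Chromosome 4 held 4 of the 12 largest rises. CHR4:009834132-009834191 had 1.73, 2.64 and 1.27 on the arrays (mean 1.88 ± 0.23), with array 2 well above the others. CHR4:012152686-012152627 had 1.93, 2.36 and 1.02 (mean 1.77 ± 0.22), and its wild-type signal was above background on 2 of 3 arrays. CHR4:009343010-009343069 had 1.20, 1.42 and 1.99, and CHR4:015953341-015953400 had 1.38, 1.10 and 1.89. Wild type was above background on 0 arrays in CHR4:009343010-009343069 and on 1 in CHR4:015953341-015953400. Chromosomes 1 and 5 held 3 each, chromosome 2 held 2 and chromosome 3 held 0.

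CHR2:007766353-007766294 had 1.38, 1.38 and 2.34, with wild type above background on 0 arrays. It was 3.1-fold higher with wild type set no lower than the detection floor. CHR1:027418582-027418523 had 1.35, 1.27 and 1.90, and CHR1:028981289-028981230 had 1.32, 1.23 and 1.73. In all 3 array 3 was the highest. CHR2:013278994-013278935 stood out for its brightness, at log2 intensities of 14.25, 13.96 and 14.31 in IBH1-SRDX, against 12.71, 12.71 and 12.65 in wild type. Its ratios of 1.54, 1.26 and 1.66 gave 1.49 ± 0.10, or 2.80-fold (adjusted p = 0.000117, limma). CHR5:008972938-008972879 had 1.35, 1.64 and 1.14. CHR5:017986282-017986341 had the widest spread of the 12, with 1.34, 2.36 and 0.64, and stood at 0.99 without replicate 2 and 1.85 without replicate 3. Adjusted p of the 12 (limma) ran up to 0.00717.

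The falls were smaller. CHR2:000805034-000804975 had -1.68, -1.31 and -1.70, a mean of -1.57 ± 0.10 (adjusted p = 0.000106, limma), or 2.96-fold lower. Its log2 intensities were 7.78, 7.73 and 7.77 in IBH1-SRDX, against 9.46, 9.04 and 9.47 in wild type. CHR3:007367507-007367566 had -1.49, -1.29 and -0.89. CHR3:007369245-007369304, which lies on the same chromosome with the same orientation less than 5 kb away, had -1.19, -1.28 and -0.71, with array 3 the least negative in both probes.

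CHR1:007886848-007886789 had -1.17, -1.11 and -1.0, and CHR3:001930936-001930877 had -1.04, -1.19 and -0.92. These complete the 5 probes that were at least 2-fold lower. CHR5:004827523-004827464 lay just short of that, at -1.04, -1.24 and -0.71, and CHR4:008346288-008346229 had -0.92, -1.08 and -0.84. CHR5:026503161-026502760, with a range of 402 positions, had -1.0, -0.94 and -0.90. Its log2 intensity was 9.73 in IBH1-SRDX, against 10.68 in wild type, the means of 3 arrays. CHR1:017332644-017332703 stood at -0.81 ± 0.08, CHR2:015250328-015250387 at -0.78 ± 0.08 and CHR5:020252268-020252209 at -0.75 ± 0.09. CHR5:016205102-016205161 stood at -0.82 ± 0.14, with -1.16, -0.42 and -0.87 on the arrays. Unlike the largest rises, of which 5 of 12 had wild type above background on fewer than 3 arrays, all 12 falls were above background in both genotypes on every array.

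Among these 24 probes, 4 kept their call under every alternative in which they were tested: CHR1:012096247-012096188, CHR2:013278994-013278935, CHR2:000805034-000804975 and CHR3:007367507-007367566. Of the other rises, 9 lost the call with outlier backgrounds kept and 2 with median centring, and of the other falls 7 and 7. No sign turned, and no call among the 24 ended when a single array was left out.

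**Figure D3:**
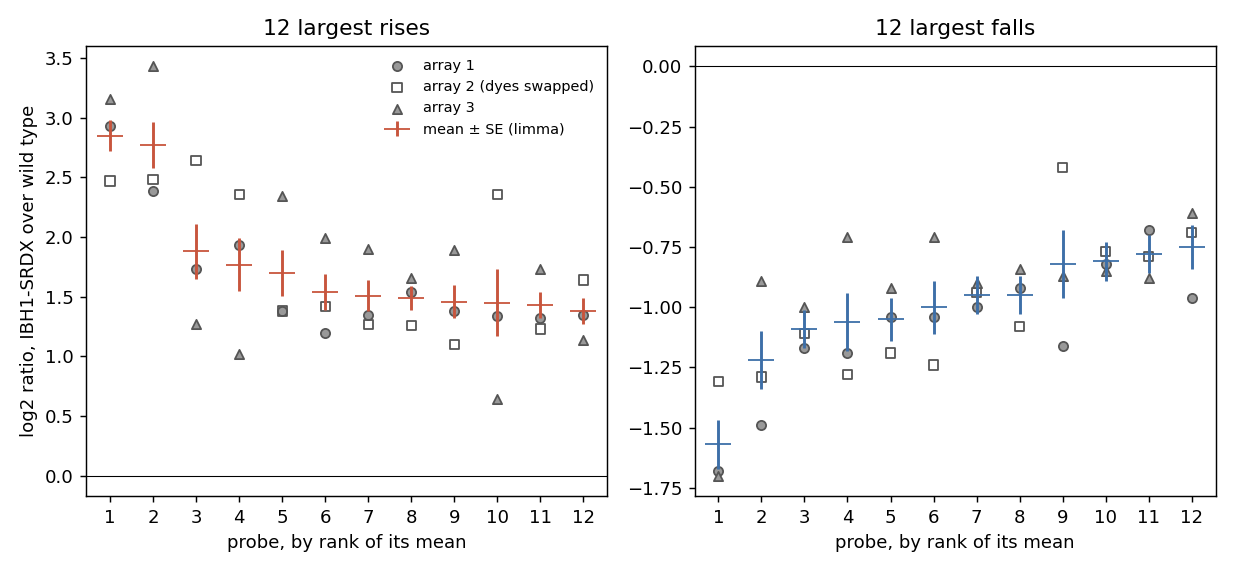
Log2 of IBH1-SRDX over wild type on each of the 3 arrays for the 12 largest called rises (left) and 12 largest called falls (right), ordered by their mean, with the mean and the SE of limma. Every array of every probe lies on the same side of zero, and the rises reach 3.43 while the falls reach -1.70.

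A probe close to a detected one was itself detected more often than others were. Among consecutive position-named probes at most 1 kb apart (not overlapping) with the same orientation, 82 of 203 that followed a detected probe were themselves detected (40.4%), against 14.8% of 862 that followed an undetected one. With opposite orientation the shares were 21 of 62 (33.9%) and 12.9%. Outside the stretch of chromosome 2 they were 34.2% and 14.7% with the same orientation, and 20% and 12.5% with opposite orientation. Beyond 20 kb, with the same orientation, they were 15.7% and 14%.

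Close neighbours also had like log2 ratios. In 89 pairs of consecutive tested probes at most 1 kb apart (overlapping ones included) with the same orientation, Pearson's r was 0.763 and Spearman's rho 0.723, and 68 pairs (76.4%) had the same sign. In all 16 of these pairs with both probes called, the direction was shared. The 28 pairs with opposite orientation had r of 0.163 and rho of 0.403, and 21 of them (75%) had the same sign. Without the stretch of chromosome 2, 14 of those pairs were left, with r of 0.253 and 9 of 1 sign (64.3%). Whether orientation makes a difference was not tested. The 847 pairs over 20 kb apart had r of 0.0375, with 52.7% of 1 sign. These are descriptions across sites, which share arrays and may share a transcript or sequence.

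Setting a probe on 1 array against its neighbour on another gave r between 0.482 and 0.701 for the 89 pairs with the same orientation, against 0.683 to 0.745 on the same array. Without the stretch of chromosome 2, 70 such pairs remained with r of 0.772. Over all orientations, r was 0.519 within 1 kb (117 pairs), 0.416 within 5 kb (208 pairs) and 0.414 within 10 kb (274 pairs). Each wider set includes the closer pairs. From 1 to 5 kb alone, 91 pairs had r of 0.211 and rho of 0.201, with 56.0% of 1 sign. Both probes were called in 13 of them, and 7 of these 13 shared a direction. From 5 to 20 kb, 170 pairs had r of 0.209 and rho of 0.0884.

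**Figure D4:**
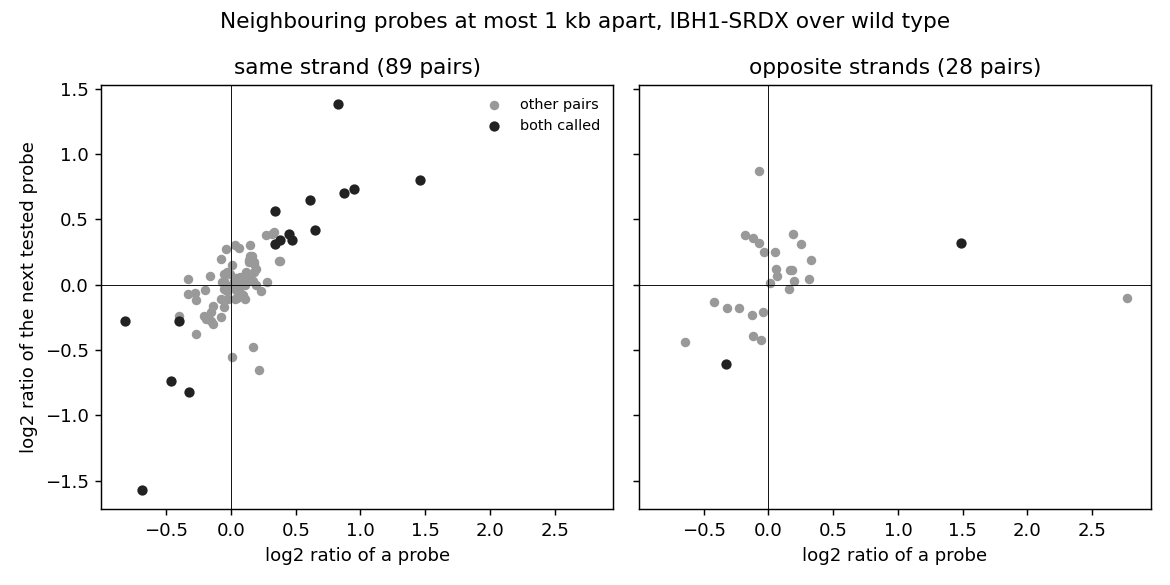
Log2 ratio (IBH1-SRDX over wild type) of a tested position-named probe against that of the next one along the chromosome, for pairs at most 1 kb apart with the same orientation (89 pairs, left) and opposite orientation (28 pairs, right), with pairs in which both probes were called in black. Points of the left panel lie along the diagonal, with r of 0.763, and those of the right are more scattered, with r of 0.163.

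Some of the largest changes had a called neighbour, while others had one that was not called or not detected. CHR2:000804643-000804584, next to the largest fall of the main preparation, had -0.78, -0.53 and -0.75 (mean -0.69 ± 0.09, against -1.57 for its neighbour). CHR5:008972586-008972527 had 0.71, 1.01 and 0.79, with array 2 the highest as in its neighbour CHR5:008972938-008972879. CHR4:015954158-015954217 had 0.60, 0.55 and 1.26, with array 3 the highest as in CHR4:015953341-015953400. Apart from the largest rises listed above, CHR1:012052217-012052276 had 0.77, 0.65 and 1.42, and CHR1:012053076-012053135 beside it had 0.70, 0.18 and 1.3. In each of these pairs the orientation is the same, and the arrays rank alike in the pairs of chromosomes 1 and 4 but not in those of chromosomes 2 and 5. These neighbours were named after their values were seen.

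CHR2:013279119-013279178 faces the bright CHR2:013278994-013278935 from the opposite strand and was also higher, with 0.40, 0.30 and 0.25 against 1.54, 1.26 and 1.66. CHR5:010186377-010186436 overlaps CHR5:010186390-010186331, again with opposite orientation, and both were lower. CHR5:010186377-010186436 was among the 6 brightest probes and had -0.45 and -0.77 on arrays 1 and 2, with its spot on array 3 marked as an outlier and left out (mean -0.61 ± 0.12, n = 2, adjusted p = 0.0108, limma). CHR5:010186390-010186331 had -0.41, -0.26 and -0.32. Labelled copies of 1 RNA strand that reach the probe of the other cannot be told apart from RNA of both strands here.

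The called probes formed 19 runs of 2 or more in 1 direction, each within 5 kb of the next, with 11 runs higher and 8 lower. They held 45 of the 290 called probes. The 2 longest had 4 probes each, and 3 had 3 probes each. In these 5 runs all probes of a run had the same orientation.

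On chromosome 5, 4 of the 5 position-named probes within 2595 positions were lower. From the first to the last they stood at -0.34 ± 0.08 (CHR5:016203356-016203415), -0.32 ± 0.10 (CHR5:016204813-016204872), -0.82 ± 0.14 (CHR5:016205102-016205161) and -0.28 ± 0.08 (CHR5:016205891-016205950). The fifth, CHR5:016204137-016204196, was above background in IBH1-SRDX on 0 arrays and in wild type on 2, and was not tested. Wild type was above background on 3 arrays in all 4 tested probes and IBH1-SRDX on 0, 2, 3 and 1. All but CHR5:016205102-016205161 thus passed the filter through wild type alone, which favours a lower ratio.

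On chromosome 1 a run of 3 higher probes lay within 346 positions, with CHR1:023830252-023830311 at 0.38 ± 0.10, CHR1:023830335-023830394 at 0.34 ± 0.08 and CHR1:023830538-023830597 at 0.56 ± 0.08. CHR1:023830127-023830186, just before them, stood at 0.27 ± 0.10 and was not called (adjusted p = 0.077, limma). Less than 5 kb after them, CHR1:023832612-023832671 of the same orientation was called lower, at -0.24 ± 0.08. The last of the run was the steadiest, with 0.52, 0.58 and 0.59 on the arrays.

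The other 3 runs lay in the stretch of chromosome 2 and were higher. CHR2:003247608-003247549 stood at 0.61 ± 0.08, CHR2:003247809-003247750 at 0.65 ± 0.08 and CHR2:003247994-003247935 at 0.42 ± 0.08. Less than 5 kb before them, CHR2:003246154-003246213 of opposite orientation was called lower, at -0.25 ± 0.08. The run of 4 comprised CHR2:003278316-003278375 at 0.30 ± 0.08, CHR2:003280351-003280410 at 0.34 ± 0.10, CHR2:003282955-003283014 at 0.43 ± 0.10 and CHR2:003284841-003284900 at 0.69 ± 0.09. In each of these 4 array 3 had the lowest ratio, from 0.12 to 0.52. Just before them, CHR2:003277940-003277999 stood at 0.03 ± 0.08 and was not called. The last run had CHR2:003424862-003424921 at 0.47 ± 0.08, CHR2:003425162-003425221 at 0.34 ± 0.08 and CHR2:003425366-003425425 at 0.31 ± 0.08. Adjusted p over the 17 probes of the 5 runs (limma) lay between 0.00097 and 0.0386. All 17 calls ended with outlier backgrounds kept and with median centring, and 11 of them without replicate 1.

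Within the whole stretch 18 of 72 tested probes were called higher (25%) and 7 lower (9.72%), beside 17.9% and 18.8% of all tested probes. Of the 1158 position-named probes tested elsewhere, 12.2% were higher and 10.7% lower. The median log2 ratio in the stretch was 0.07, 0.18 and 0.04 on arrays 1, 2 and 3, and its probes ran from -0.55 to 0.87, so none was called at 2-fold. Its strongest rise was that of CHR2:003440026-003440085, with 0.92, 0.79 and 0.88 on the arrays, beside CHR2:003440145-003440204 with 0.67, 0.87 and 0.55. The 3 tested probes for mitochondrial loci lay between -0.24 and -0.08, and 0 of them were called.

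By chromosome, the called shares ranged from 11.1% to 15.2% higher. Lower calls made up 4.83% of the tested probes on chromosome 4 (22 higher and 7 lower of 145) and between 10.2% and 12.7% on the other chromosomes. Whether chromosome 4 differs from the others was not tested. The medians of the log2 ratio lay between -0.014 (chromosome 5) and 0.036 (chromosome 4).

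In 14 of the 8812 position-named probes IBH1-SRDX was above background on all 3 arrays and wild type on 0. The same held for 92 of the 26236 probes with a locus and 11 of the 2430 with other accessions. Of the 14, 9 were called higher. A floored fold for each of the 14 set the brighter genotype against the dimmer one's signal or the detection floor, whichever was higher. In the main preparation these ran from 1.10-fold to 3.1-fold. They carry no error and equal the mean ratio where the dimmer signal lay above the floor. They are therefore not lower limits. With outlier backgrounds kept, the log2 ratios of CHR2:007766353-007766294 and CHR4:009343010-009343069 were 1.16 and 1.08. Only CHR2:007766353-007766294 and CHR4:009343010-009343069 (2.90-fold) had floored folds above 2. CHR4:015954158-015954217 was 1.75-fold higher, CHR3:011747822-011747763 1.6-fold, and CHR4:002077234-002077293 and CHR1:011617035-011617094 each 1.43-fold. All 6 of these calls ended with outlier backgrounds kept, and with median centring those of the last 4 did.

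The reverse, wild type on all 3 arrays and IBH1-SRDX on 0, held for 8 of the 8812 position-named probes, of which 4 were called lower. It also held for 78 of the 26236 probes with a locus and 9 of the 2430 with other accessions. The floored folds of the 8 lay between 1.09-fold and 1.27-fold. CHR5:016203356-016203415 was 1.27-fold lower, CHR3:020028650-020028591 1.25-fold, CHR1:010718135-010718076 1.21-fold and CHR1:023832612-023832671 1.18-fold. All 4 calls ended with outlier backgrounds kept, with median centring and without replicate 1, 3 of them without replicate 3, and that of CHR1:023832612-023832671 also without replicate 2. CHR5:010934719-010934778 and CHR5:005034122-005034063 stood at -0.24 ± 0.09 and -0.15 ± 0.09 and were not called. These probes sat near the detection limit in both genotypes: in no case was the mean log2 intensity of the 6 named above 6.75 in wild type.

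Of the 6 brightest position-named probes, 4 were not called. CHR2:003333828-003333887 had -0.23, -0.04 and -0.36, CHR4:000058530-000058581 had -0.33, 0.11 and -0.10, and CHR2:003298991-003299050 had 0.02, 0.29 and 0.02. CHR5:016071136-016070984, with a range of 153 positions, had -0.06, 0.04 and 0.14. Both called ones, CHR2:013278994-013278935 and CHR5:010186377-010186436, had 1 sign on every array measured. Brightness is a property of a spot and depends on the probe, so it is not read as a transcript level.

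Position-named probes were dimmer than probes with a locus, with a median average log2 intensity of 7.07 against 10.1 among those tested. Below an intensity of 7, 12.5% of 553 position-named probes were called, against 28.3% of 1377 with a locus, and between 7 and 9 the shares were 29.9% of 531 and 43.0% of 4999. Between 9 and 11 they were 43.7% of 119 and 37.9% of 7066, and from 11 up 37.0% of 27 and 36.7% of 6831. The median size of the log2 ratio in the dimmest class was 0.081 for position-named probes and 0.161 for probes with a locus. Background correction added 50 units to every spot, which draws the ratios of dim spots toward zero. With the Feature Extraction log ratio, which adds no constant but also differs in its signals and dye normalization, the called shares of position-named probes lay closer to those of all tested probes, as given above. With an offset of 20 in place of 50, the called shares of position-named probes were 14.96% higher and 11.63% lower. Those of all tested probes were 17.96% and 18.41%. With no background correction the shares of position-named probes were 12.8% higher and 10.7% lower, against 18% and 19.3% of all tested probes. That setting leaves the background in the signal. How far the offset accounts for the lower called shares of dim position-named probes was not tested.

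**Figure D5:**
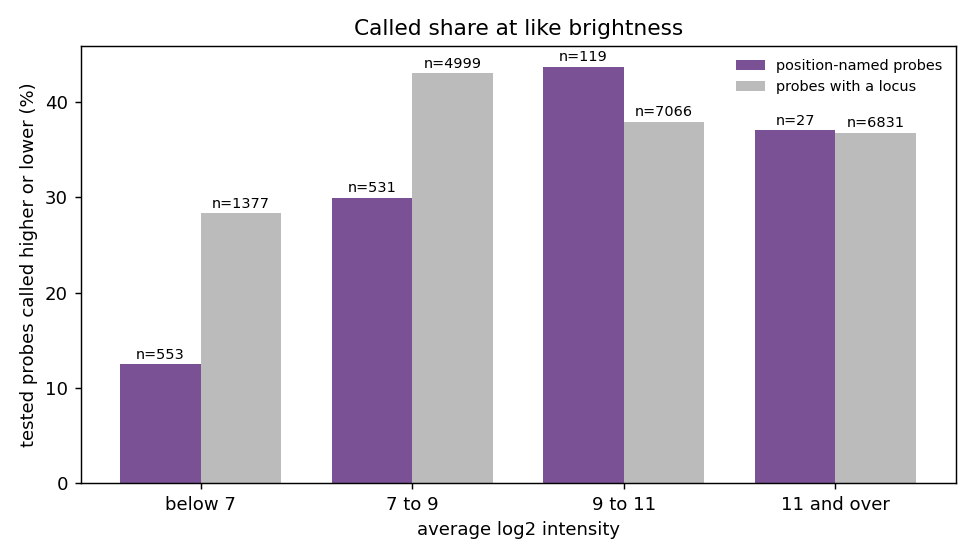
Share of tested probes called higher or lower (%) in 4 classes of average log2 intensity, for position-named probes (purple) and probes with a locus (grey), with the number tested above each bar. Below an intensity of 9 the purple bars are shorter (12.5% and 29.9%, against 28.3% and 43.0%), and from 9 up they are as tall or taller.

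Correlations between arrays were lower over the position-named probes than over probes with a locus, while the spread of a probe between arrays was similar. The median SD of a probe between arrays was 0.130 for position-named probes and 0.137 for probes with a locus. Ratios of position-named probes spanned less, with an SD across probes of 0.344, 0.355 and 0.382 on arrays 1 to 3. For probes with a locus it was 0.521, 0.568 and 0.504. Across the 1230 tested position-named probes, which are not independent replicates, r between arrays was 0.768 (1 and 2), 0.814 (1 and 3) and 0.683 (2 and 3), against 0.859, 0.883 and 0.806 for probes with a locus. The probes closest to the threshold were CHR2:002938656-002938597, called lower at -0.38 ± 0.12 (adjusted p = 0.0497, limma), and CHR5:026469045-026469104, not called at -0.30 ± 0.10 (adjusted p = 0.051, limma). Their array values were -0.47, -0.03 and -0.64, and -0.53, -0.27 and -0.11.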

How the data were processed

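Each of 3 2-colour arrays held IBH1-SRDX and wild-type RNA, grouped by the labels. The deposited scanner files hold median spot and local background intensity per channel, a log10 ratio of Cy5 to Cy3 after background subtraction and dye normalization, and flags of 0 or 1, per the file headers. The software was Feature Extraction 9.1.3.1, per the submitters' processing notes. The series table deposited beside them holds natural logs of IBH1-SRDX over wild type: this scale and direction follow from a slope of 1.00 on the scanner files' ratios. It lies 0.0929 below them on each array, and how that constant was set stays unknown. Its column medians were 0.00195, -0.225 and 0.00455.

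Mean spot signals are not in these files, so median signals were used, with local backgrounds marked as outliers replaced by the median unmarked one of their array and channel. Then followed normexp (offset 50), loess within arrays with control spots at weight 0, removal of control spots and of 91 to 189 marked spots per array, and averaging of the spots of a probe (the 8812 position-named probes had 8821 spots). Probes well above background on all 3 arrays in a genotype were tested genome-wide with lmFit and eBayes of limma 3.58.1 (R 4.3.3, the data.table package in version 1.17.8) on log2 ratios against 0, with Benjamini-Hochberg adjustment over 22351 probes. The smallest exact two-sided p of a sign-flip test over 3 arrays is 0.25, so calls rest on limma's pooled spread (2 residual and 4.91 prior degrees of freedom). Since 1 of 3 arrays was swapped, 33.3% of a dye bias stays in a mean. With a dye term 0 position-named probes had a called dye effect (138 at an unadjusted p below 0.05, limma).

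Floored folds used intensities per channel after loess and Aquantile. A genotype below background was set at the higher of its own signal and the lowest signal among detected probes. These folds carry no error and are open to dye bias. The fit was tested on simulated data.

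Probes named are the 12 largest and 12 smallest called log2 ratios with 1 sign on 3 arrays, the 6 brightest, up to 6 detected in 1 genotype only in each direction, the longest runs of called neighbours within 5 kb (5, with ties), and those nearest the threshold. The probes, rules and tests were chosen with earlier results of these data known. No genome or probe sequence was used here.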

Additional observations from a re-analysis of the deposited data

How the results depend on the processing

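Counts of called position-named probes (159 higher, 131 lower, 19 and 5 at 2-fold or more) moved by over 1.5 times under several settings. With outlier local backgrounds kept they were 7, 15, 3 and 1, and with median centring 13 higher and 5 lower. Called shares of all tested probes also fell in both settings, as given above. The Feature Extraction log ratio, which adds no constant, gave 208 lower, with 59 and 37 at 2-fold or more. The deposited series table gave 322 lower, with 50 and 54 at 2-fold, and a median log2 ratio of -0.151. With both genotypes required above background 12 were at least 2-fold higher. Leaving out 1 array gave 86 to 168 higher and 45 to 166 lower. Detection on at least 1 array counted 1893 probes in IBH1-SRDX and 2085 in wild type, and positive and significant spots on all 3 arrays 2388 and 2338. The neighbour correlation was 0.519 within 1 kb, against 0.416 within 5 kb, a set that includes the closer pairs. An alternative chosen after seeing the data, without the stretch of chromosome 2, gave 141 higher, 124 lower and correlations of 0.521 within 1 kb and 0.414 within 5 kb. No called change of a named probe turned its sign under any setting. Of the 56 named probes 49 were called. Of these calls 41 ended with outlier backgrounds kept, 34 with median centring and 15 without replicate 1. The causes were not tested. Signal over background limits most position-named probes: 553 of the 1230 tested lay below a log2 intensity of 7.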

Other observations

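The position-named probes were unevenly spread over the genome, with a median of 7 per 100 kb window and up to 47 in 1 window. The windows from 23800001 to 24000000 of chromosome 1 held 42 and 47 probes, of which 12 and 12 were above background on all 3 arrays in a genotype. Of 1155 windows with a probe, 506 had none detected and 16 had 5 or more. These windows were chosen after their values were seen.

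Where probes of opposite orientation overlapped (202 pairs), 7 pairs had both probes detected, 29 pairs had 1, and 166 pairs had neither.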
